A study of Mus musculus with 2 samples.

Results

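The genes described here are 10 genes whose RNA is widely used to mark astrocytes: Gfap, Aqp4, Gja1, Gjb6, S100b, Aldh1l1, Aldoc, Fgfr3, Vim and Kcnj10. They were chosen by name from 55536 annotated genes, by a rule that uses no measured value but with earlier results of these data known, and all 10 were matched by symbol and by gene identifier. Levels are given for the gene, and the shares of its transcripts are followed most closely for Gfap and Aqp4.

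Astrocytes are the glial cells that take up transmitter and potassium, couple to each other through gap junctions and wrap blood vessels with their endfeet. Gfap and Vim encode intermediate filaments of their cytoskeleton, and Gfap RNA is known to rise when astrocytes become reactive. Aqp4 encodes the water channel of the endfeet, Kcnj10 an inwardly rectifying potassium channel, and Gja1 and Gjb6 the connexins of astrocyte gap junctions.

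The samples were hippocampus of female B6CASTF1/J mice, the first-generation cross of C57BL/6J and CAST/EiJ, aged 18 to 20 months and obtained from The Jackson Laboratory. The labels name no treatment and no genetic change, and they call the tissue a layer of the hippocampus without saying which. There was 1 group of 2 total RNA libraries, replicate 1 and replicate 2, each made from 300 ng of RNA after reduction of ribosomal RNA and with ERCC spike-in RNA added. Each library has its own biosample label but both carry the same donor label, so the spread between them may be technical or biological. With no contrast between groups, no p-value was computed. Intervals given below for 1 library or for the ratio of the libraries are exact 95% intervals that cover counting error only. Values with ± are the mean and SD of both libraries (n = 2).

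Replicate 2 held 36307276 counts assigned to genes and replicate 1 held 35358099, and ERCC spike-ins took 0.489% and 0.493% of all counts in those libraries. After scaling with TMM factors, the biological coefficient of variation between the libraries was 4.66%. To be tested, a gene needed 50 counts or more on average over the libraries, which 14307 genes had, and it was called when the ratio of its scaled counts passed 2-fold or 1.2-fold. Of the tested genes 0.384% were over 2-fold apart. At 1.2-fold the share was 10.4%, with 5.62% higher and 4.75% lower in replicate 2. These shares are not matched for counts, and genes with few counts pass 1.2-fold more easily by counting error. In bulk tissue, fewer cells of a type and less RNA per cell cannot be told apart, and the tables do not separate the alleles of the parental strains. The identity of the tissue as one that holds astrocytes was checked on 30 other astrocyte genes. All 30 were detected, which here means 1 TPM or more in each library, where TPM is an abundance corrected for transcript length. They were led by Glul, the glutamine synthetase gene, at 789 ± 50.4 TPM and Slc1a2, a glutamate transporter gene, at 688 ± 20.6 TPM, and the lowest was Chrdl1 at 2.79 ± 0.49 TPM.

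Gfap (chr11:102887336-102900912, minus strand, mm10) carries 3 annotated transcripts, and the protein-coding pair differs at the 3′ end. Gfap-201 has 9 exons and 430 codons, the structure of the main form known as alpha. Gfap-202 has 8 exons and 428 codons, the structure known as delta, a form linked in the literature to astrocytes of neurogenic zones and less able to build filaments alone. Both share 7 identical coding exons, 1162 coding bases and 387 whole codons. Gfap-201 then continues into exons 8 and 9, while Gfap-202 ends in an exon of its own (chr11:102890166-102891520) that lies in the intron before exon 8 of Gfap-201. With the untranslated part included, Gfap-201 held 1472 exonic bases of its own and Gfap-202 held 1424, against 1176 that both share.

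**Figure D1:**
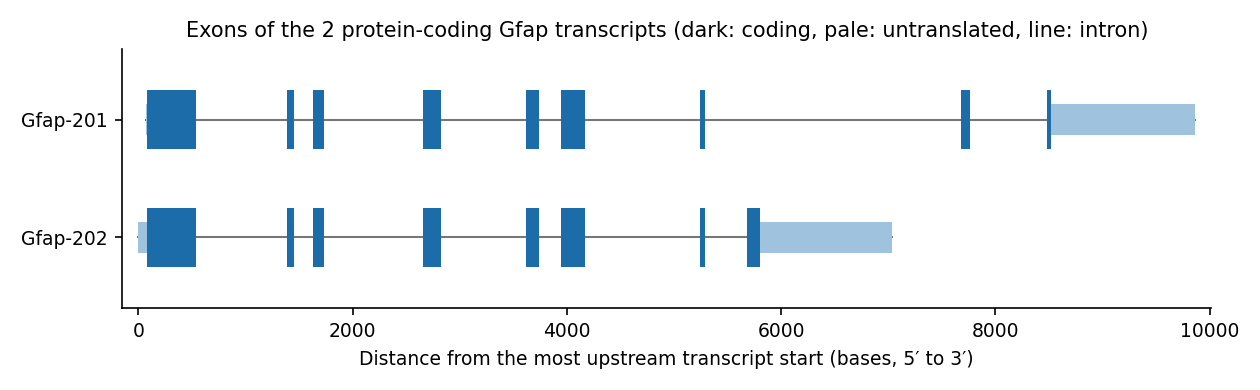
Exons of Gfap-201 and Gfap-202, plotted by distance in bases from the most upstream transcript start, with coding parts dark and tall, untranslated parts pale and introns as lines. The first 7 coding exons line up, and the last exon of Gfap-202 stands where Gfap-201 has an intron.

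Most Gfap RNA was Gfap-201. By the authors' share of the gene's TPM in the RSEM-layout tables, which were made from a transcriptome alignment, Gfap-201 took 91.5% in replicate 2 and 90.6% in replicate 1. Gfap-202 took 8.50% in replicate 2 and 9.24% in replicate 1. The short non-coding Gfap-203 was at 0 in replicate 2 and 0.12% in replicate 1. Over both libraries the shares were 91.1 ± 0.61% for Gfap-201 and 8.87 ± 0.52% for Gfap-202, so the delta structure was the smaller form in each library by far more than their spread. The last exon of Gfap-202 lies in an intron of Gfap-201, and the libraries are total RNA. The part of unspliced Gfap RNA in the Gfap-202 share was not tested.

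Behind these shares stood 11531 counts for Gfap-201 and 1051 for Gfap-202 in replicate 2. Replicate 1 had 11459 for Gfap-201 and 1146 for Gfap-202. Taken as a share of the gene's counts, Gfap-202 reached 8.35% in replicate 2 (7.88 to 8.85%) and 9.09% in replicate 1 (8.59 to 9.61%), and the intervals overlap.

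The kallisto-layout tables, which were made straight from the reads, gave Gfap-202 a larger share of the gene's TPM. It was 13.3% in replicate 2 and 14.5% in replicate 1, or 13.9 ± 0.82%, and Gfap-201 took the remaining 86.1 ± 0.82%. The TPM ratio of Gfap-201 to Gfap-202 was thus 10.3 ± 0.68 in the RSEM layout against 6.22 ± 0.43 in the kallisto layout. The step between layouts, 5.01 percentage points for Gfap-202, was larger than the spread between libraries in either layout, and Gfap-201 led in both libraries and both layouts.

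**Figure D2:**
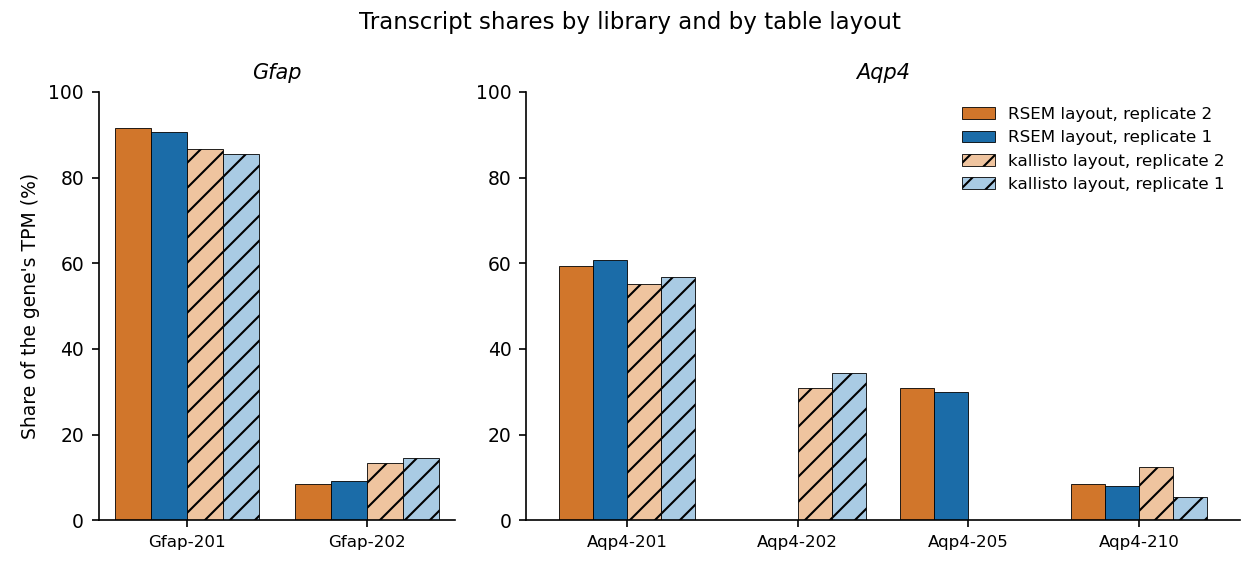
Share of the gene's TPM (percent) taken by each Gfap and Aqp4 transcript with a mean share of at least 5% in either layout, with 1 bar for each library and layout. Gfap-201 stands between 85.5 and 91.5%, and Aqp4-202 and Aqp4-205 exchange places between the layouts.

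As a gene, Gfap reached 181 TPM in replicate 2 against 194 TPM in replicate 1 from 12582 and 12607 counts in those libraries. Its mean of 188 ± 9.28 TPM placed it in the top 2.30% of the 12720 detected nuclear protein-coding genes. The scaled counts of replicate 2 over replicate 1 gave a ratio of 0.974 (0.951 to 0.999), and the kallisto-layout counts gave 0.975. The lincRNA gene Gm26668 spans Gfap on the opposite strand, and it held 0 counts in replicate 2 and 1 in replicate 1.

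Vim (chr2:13573927-13582826, plus strand), the other filament gene, encodes vimentin and is also expressed by endothelial, mural and fibroblast cells. It had 24.7 TPM in replicate 2 against 24.5 TPM in replicate 1, from 979 and 931 counts in those libraries, the fewest counts of the 10 genes. The libraries were alike to within counting error, with a ratio of 1.03 (0.938 to 1.12). Set on the TPM scale among 10 intermediate filament genes, Gfap took 34.3% of the summed TPM, next to 33.6% for Nefl, the light neurofilament gene of neurons. Ina and Nefm, also filament genes of neurons, followed at 75.0 ± 0.66 TPM and 47.1 ± 2.33 TPM, and Des, the muscle filament gene, was lowest at 0.42 ± 0.20 TPM. None of the 8 tested filament genes was over 1.2-fold apart between libraries, beside 10.4% of all tested genes.

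The transcript that led Vim depended on the table. Vim-206, of 427 codons, took 37.3% in replicate 2 and 46.9% in replicate 1 of the RSEM-layout TPM. Vim-201, of 466 codons, took 31.9% in replicate 2 and 27.0% in replicate 1. In the kallisto layout Vim-201 took 68.1% in replicate 2 and 78.0% in replicate 1, and Vim-206 took 6.30 and 15.5% there. The retained-intron transcript Vim-203 held 26.0 ± 3.09% in the RSEM layout against 6.24 ± 8.83% in the kallisto layout, and the short Vim-202 was at 0 in the first and at 8.31 ± 5.47% in the second. Vim was the single gene of the 8 with several transcripts whose leading coding sequence differed between layouts.

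Fgfr3 (chr5:33721674-33737068, plus strand) encodes a receptor of fibroblast growth factors that marks astrocytes and their precursors. It had 47.5 TPM in replicate 2 against 48.6 TPM in replicate 1, from 4433 and 4524 counts in those libraries, with a ratio of 0.957 (0.918 to 0.997). Among 5 FGF receptor genes it took 39.1% of the summed TPM, followed by 35.2% for Fgfr1. Fgfr2 stood at 22.4 ± 0.75 TPM, Fgfrl1 at 9.24 ± 0.54 TPM and Fgfr4 at 0.08 ± 0.04 TPM. Fgfrl1, a receptor-like gene without a kinase domain, was the one of 4 tested members over 1.2-fold apart, with 493 counts in replicate 2 and 401 in replicate 1. Its ratio of 1.2004 lay just past the cutoff, which 10.4% of all tested genes passed in either direction.

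The pair Fgfr3-201 and Fgfr3-209 is shown because 1 codon separates their coding sequences and the layouts gave Fgfr3-209 unlike shares. Both run over 18 exons, with 2400 coding bases in Fgfr3-201 and 2403 in Fgfr3-209. Where their coding exons differ, Fgfr3-209 holds 3 more bases, printed in capitals below between the last 21 bases of the upstream exon and the first 21 bases that both share downstream (chr5:33732892-33733277, GENCODE M21 transcripts, mm10).
Fgfr3-201: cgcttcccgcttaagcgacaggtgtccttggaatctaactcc
Fgfr3-209: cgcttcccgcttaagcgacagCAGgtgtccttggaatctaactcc
Fgfr3-209 took 15.1% in replicate 2 and 15.8% in replicate 1 in the RSEM layout, against 0.024 ± 0.032% in the kallisto layout. Fgfr3-201 and Fgfr3-210, which share 1 coding sequence, together took 57.0 ± 4.07% in the RSEM layout against 37.3 ± 1.70% in the kallisto layout. Within that pair Fgfr3-201 led in the RSEM layout with 47.0 ± 0.59%, and Fgfr3-210 led in the kallisto layout with 35.8 ± 0.064%.

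The other Fgfr3 transcripts named here also had unlike shares, and all but Fgfr3-205 had more in the kallisto layout. Fgfr3-213 was at 0 in the RSEM layout, while in the kallisto layout it held 11.4% in replicate 2 and 14.6% in replicate 1. Fgfr3-202 was at 0 in the RSEM layout and took 5.48 ± 0.34% in the other. Fgfr3-217 held 3.52 ± 4.07% in the RSEM layout against 14.3 ± 2.93% in the kallisto layout, and Fgfr3-214 held 1.38 ± 1.94% and 6.87 ± 0.087% in the same order. The retained-intron transcripts Fgfr3-205 and Fgfr3-206 took 8.79 ± 1.00% and 1.85 ± 0.057% in the RSEM layout, against 5.57 ± 0.21% and 14.6 ± 0.55% in the kallisto layout. As a gene, Fgfr3 had the largest step between layouts of the 10, with a kallisto-layout TPM 2.56 times its RSEM-layout TPM.

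Gja1 and Gjb6 were the main connexin genes of this tissue by TPM. Gja1 (chr10:56377330-56402513, plus strand) had 105 TPM in replicate 2 against 108 TPM in replicate 1, from 8448 and 8167 counts in those libraries, with a ratio of 1.01 (0.980 to 1.04). Gjb6 (chr14:57123303-57133611, minus strand) had 51.8 TPM in replicate 2 against 50.6 TPM in replicate 1, from 2021 and 2015 counts, with a ratio of 0.979 (0.920 to 1.04). For both genes the interval of the ratio held 1. Of the TPM summed over 20 connexin genes, Gja1 took 57.4% and Gjb6 took 27.7%.

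Of those 20 connexin genes 8 were detected, and 4 had no count in either library. Gjc3 and Gjb1, connexins of oligodendrocytes, came next at 8.04 ± 1.45 TPM and 5.16 ± 0.66 TPM. Their ratios were 0.848 and 0.879. Among 8 tested connexin genes, 2 were over 1.2-fold higher in replicate 2 and 1 was lower, beside 5.62% and 4.75% of all tested genes. The higher ones were Gjb2, which astrocytes and meningeal cells express, and Gjd2 of neurons, at 1.51-fold and 1.35-fold.

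For Gja1, nearly all RNA carried 1 coding sequence of 382 codons. Gja1-201 and Gja1-206, which share it and differ upstream of it, together held 99.0 ± 0.31% in the RSEM layout against 98.4 ± 0.98% in the kallisto layout. Within the pair the RSEM layout gave Gja1-201 98.9 ± 0.16% and Gja1-206 0.11 ± 0.15%. The kallisto layout gave Gja1-206 56.5% in replicate 2 and 52.9% in replicate 1, with 43.7 ± 3.50% for Gja1-201.

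For Gjb6, Gjb6-201, with 261 codons, led in every table, at 59.3% in replicate 2 and 66.8% in replicate 1 in the RSEM layout against 80.2 ± 2.59% in the kallisto layout. The non-coding Gjb6-203, of 201 bases, held 26.4% in replicate 2 and 19.9% in replicate 1 in the RSEM layout from 38.0 and 26.2 counts in those libraries. It was at 0 in the kallisto layout, where the short coding Gjb6-202 held 15.8 ± 1.24% against 4.38 ± 0.40% in the RSEM layout. The retained-intron Gjb6-204 held 9.47 ± 0.28% in the RSEM layout against 4.03 ± 1.35% in the kallisto layout.

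Aqp4 (chr18:15389496-15410982, minus strand) showed the largest difference between libraries of the 10 genes. It had 45.2 TPM in replicate 2 against 41.2 TPM in replicate 1, from 4146 and 3598 counts in those libraries, and the scaled counts gave a ratio of 1.13 (1.08 to 1.18). Kallisto-layout counts gave 1.13 as well. The interval did not hold 1, and its upper bound stayed under 1.2. Among 6 aquaporin genes Aqp4 took 72.6% of the summed TPM and Aqp11, an aquaporin of intracellular membranes, 25.0%. Aqp9 stood at 0.96 ± 0.09 TPM, and Aqp1, which the choroid plexus expresses, stood at 0.34 ± 0.19 TPM. Aqp7 was lowest, with 1 count in replicate 2 and 3 in replicate 1.

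Aqp4 has 11 annotated transcripts and 2 full-length coding sequences, which correspond to the long and the short form of the water channel. The long one has 323 codons and is carried by Aqp4-201 alone, and the short one has 301 codons, lacks the first 22 of the long form and is carried by 7 transcripts. Aqp4-201 took 59.3% of the RSEM-layout TPM in replicate 2 and 60.7% in replicate 1. Its kallisto-layout shares were 55.1% in replicate 2 and 56.8% in replicate 1. Together, the 7 transcripts of the short form took 38.9 ± 0.86% in the RSEM layout against 42.8 ± 0.91% in the kallisto layout. This grouping by coding sequence was chosen after the transcript values were seen, and it held the ratio of long to short at 1.54 ± 0.060 in the RSEM layout against 1.31 ± 0.057 in the kallisto layout.

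Below the level of the coding sequence, the layouts named different transcripts of the short form. Aqp4-205 took 30.5 ± 0.71% in the RSEM layout and was at 0 in the kallisto layout. Conversely, Aqp4-202 took 31.0% in replicate 2 and 34.3% in replicate 1 in the kallisto layout, against 0.01 ± 0.014% in the RSEM layout. Aqp4-210 held 8.22 ± 0.49% in the RSEM layout against 8.95 ± 4.92% in the kallisto layout.

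The 3′ ends of these Aqp4 transcripts are unequal in the annotation. The last exon of Aqp4-201 has 4234 bases, and the longest last exon among the 7 short-form transcripts has 340 bases, so no annotated transcript joins the short coding sequence to the long last exon. As a share of counts rather than TPM, Aqp4-201 held 87.4% in replicate 2 (86.4 to 88.4%) and 88.0% in replicate 1 (86.9 to 89.1%). The part of the annotation in the short-form share was not tested.

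Kcnj10 (chr1:172341210-172374085, plus strand), the potassium channel gene, has 1 annotated transcript. It had 36.0 TPM in replicate 2 against 35.7 TPM in replicate 1, from 5209 and 4833 counts in those libraries, and a ratio of 1.05 (1.01 to 1.09). Among 11 genes of inward rectifier channels only Kcnj3 and Kcnj6, neuronal channels gated by G proteins, stood above it by TPM, at 44.9 ± 2.44 TPM and 42.4 ± 2.68 TPM. Kcnj4, a channel of forebrain neurons, was just below it at 35.2 TPM in each library, and Kcnj8, a channel of pericytes, was lowest at 0.63 ± 0.03 TPM. None of the 9 tested members was over 1.2-fold apart, beside 10.4% of all tested genes.

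Around Aqp4 and Kcnj10 at the endfoot lies the dystrophin-associated complex with its partners. All 11 genes listed for it were detected. Mlc1, the gene of a membrane protein of astrocyte junctions, led at 49.1 ± 0.57 TPM, followed by the matrix gene Agrn at 46.5 ± 1.75 TPM, Dtna at 45.2 ± 1.40 TPM and the dystroglycan gene Dag1 at 29.6 ± 1.19 TPM. Sspn, the sarcospan gene, was lowest at 2.11 ± 0.23 TPM. It was the single member over 1.2-fold apart, at 1.22-fold higher in replicate 2, beside 10.4% of all tested genes.

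Aldoc (chr11:78322968-78327781, plus strand), the brain aldolase of glycolysis, was the highest of the 10 genes. It had 371 TPM in replicate 2 against 360.3 TPM in replicate 1, from 16724 and 15511 counts in those libraries, with a ratio of 1.05 (1.03 to 1.08). Its mean lay in the top 0.700% of detected nuclear protein-coding genes. Aldoa, the aldolase of most tissues, was higher still at 1099 ± 45.7 TPM and took 74.9% of the aldolase TPM, against 24.9% for Aldoc. Symbol Aldoa has a second identifier in the annotation, at 1.66 ± 0.47 TPM. Reads could be split between those entries.

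Aldoc-202 and Aldoc-201 share a coding sequence of 363 codons. Aldoc-202 took 80.1 ± 1.97% in the RSEM layout against 78.9 ± 0.75% in the kallisto layout, and Aldoc-201 took 12.8% in replicate 2 and 13.1% in replicate 1 of the RSEM-layout TPM and 8.37 ± 0.086% of the kallisto-layout TPM. The non-coding remainder was placed on Aldoc-206 in the RSEM layout, at 5.91 ± 2.09%, and on the retained-intron Aldoc-205 in the kallisto layout, at 12.2 ± 0.91%.

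Aldh1l1 (chr6:90486427-90600203, plus strand) encodes formyltetrahydrofolate dehydrogenase of folate metabolism and is a common astrocyte marker. It was the lowest of the 10 genes in the RSEM layout, with 16.7 TPM in replicate 2 against 17.6 TPM in replicate 1. Its counts were 1246 and 1155 in those libraries, and the ratio was 1.05 (0.972 to 1.14). Aldh1a1, a retinal dehydrogenase gene, was near it at 19.0 ± 1.87 TPM. Aldh1l2 and Aldh1a3 stood at 0.62 ± 0.01 TPM and 0.59 ± 0.04 TPM. Aldh1a2, which meningeal fibroblasts express, was the 1 member of this enzyme list over 2-fold apart, beside 0.384% of all tested genes. It had 295 counts in replicate 2 and 120 in replicate 1, and was 2.40-fold higher in replicate 2 by scaled counts.

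Aldh1l1-201 led in both layouts, at 69.8 ± 3.99% in the RSEM layout against 48.3 ± 3.21% in the kallisto layout. Aldh1l1-203, with the same coding sequence of 902 codons, added 7.17 ± 3.84% and 7.35 ± 2.37%. The non-coding Aldh1l1-202 and Aldh1l1-205 were at 0 in the RSEM layout and at 18.7 ± 2.92% and 15.9 ± 9.45% in the kallisto layout. Aldh1l1-206 held 10.9 ± 4.10% in the RSEM layout, and the decay transcript Aldh1l1-207 was uneven, with 160.1 counts in replicate 2 and 42.1 in replicate 1.

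S100b (chr10:76253853-76261159, plus strand) encodes a calcium-binding protein of astrocytes that mature oligodendrocytes also express. It has 1 annotated transcript of 92 codons. It had 62.0 TPM in replicate 2 against 62.8 TPM in replicate 1, from 2340 and 2219 counts in those libraries, with a ratio of 1.03 (0.971 to 1.09). Among 10 S100 genes it was highest, with 36.0% of the summed TPM. S100a1, S100a16 and S100a10 followed at 41.6 ± 0.76 TPM, 35.0 ± 2.48 TPM and 10.2 ± 1.04 TPM, and S100a9, a gene of neutrophils, had 3 counts in replicate 2 and 1 in replicate 1. Dip2a overlaps S100b by 1731 bases on the opposite strand and held 2794 counts in replicate 2 and 2955 in replicate 1. The strand setting of the counting is not given in the sources used here, so reads in that overlap could belong to either gene.

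By RSEM-layout TPM the 10 genes ran from Aldoc through Gfap, Gja1, S100b, Gjb6, Fgfr3, Aqp4, Kcnj10 and Vim to Aldh1l1. The highest mean was 21.3 times the lowest. Every neighbouring pair in that order differed by more than the combined SD of the pair, and their libraries did not overlap. The closest neighbours were Gjb6 at 51.2 ± 0.88 TPM and Fgfr3 at 48.1 ± 0.77 TPM.

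In the kallisto layout Fgfr3 stood above S100b, Aqp4 above Gjb6 and Aldh1l1 above Vim. Of these, Aqp4 at 76.3 ± 7.39 TPM and Gjb6 at 69.2 ± 2.81 TPM were not separated by their spread. Neither were Aldh1l1 at 39.0 ± 4.95 TPM and Vim at 34.7 ± 4.77 TPM. Fgfr3 at 123 ± 2.06 TPM and S100b, with 97.8 TPM in replicate 2 and 92.2 TPM in replicate 1, were separated, in the order opposite to that of the RSEM layout.

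The median of the 10 genes was 49.6 TPM, beside a median of 14.4 TPM over the detected nuclear protein-coding genes. All 10 genes had a higher TPM as deposited in the kallisto layout, by 1.35 to 2.56 times, with a median of 1.59 times. Over the detected nuclear protein-coding genes the median of that ratio was 1.67 times. With both layouts rescaled to nuclear protein-coding genes the ratio ran from 0.764 for Gjb6 to 1.45 for Fgfr3, and 7 of the 10 genes were then lower in the kallisto layout. The 3 that stayed higher were Fgfr3, Aldh1l1 and Aldoc.

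**Figure D3:**
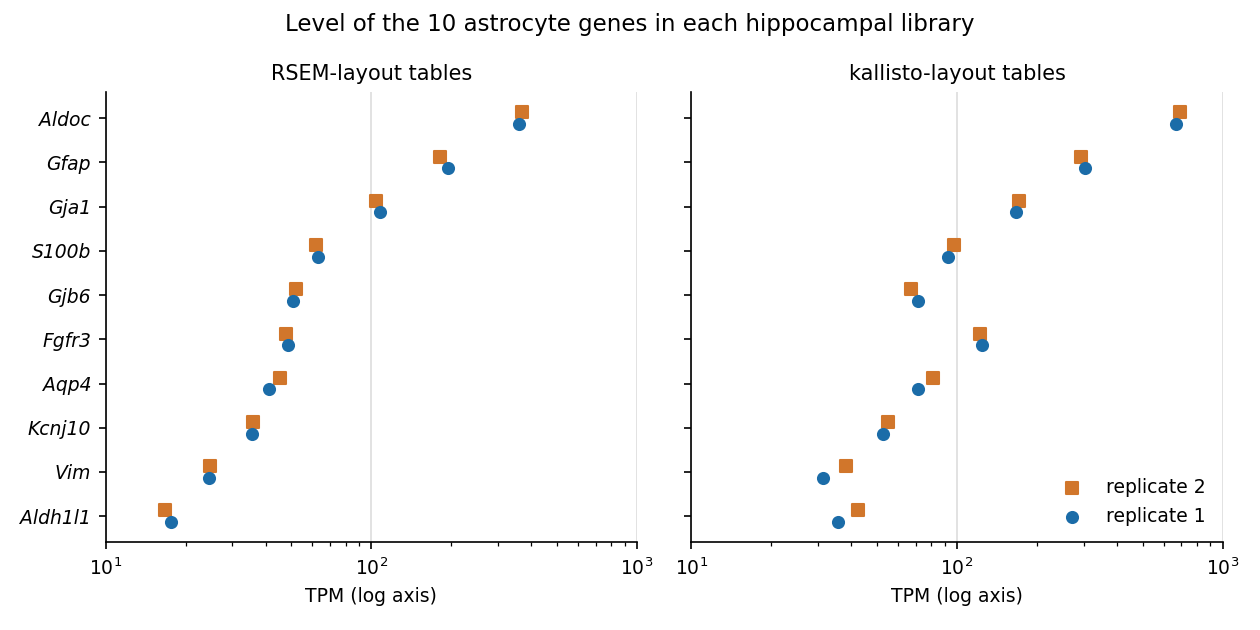
TPM of the 10 genes (log axis) in each library, in the RSEM-layout tables on the left and the kallisto-layout tables on the right, with 1 point for each library. Aldoc leads at 371 and 360.3 TPM in the RSEM layout, and the points of a gene lie close together compared with the 21.3-fold range between genes.

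Between the libraries the 10 genes were close. All 10 had the counts to be tested. None of the 10 was over 2-fold apart, where 0.384% of all tested genes were. None was over 1.2-fold apart either, where 10.4% of all tested genes were. At that background about 1 gene in 10 would be called, so a count of 0 among 10 genes is near it. The background covers all tested genes, while no member had fewer than 931 counts in a library. No share at such counts was computed.

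By scaled counts 50.1% of all tested genes were higher in replicate 2. Of the 10 genes 7 were higher and 3 lower, and the 3 were Gfap, Gjb6 and Fgfr3. The interval of the ratio did not hold 1 for 5 genes. These were Aldoc, Aqp4 and Kcnj10 above 1 and Gfap and Fgfr3 below 1. No such count was made over all tested genes. The intervals cover counting error only and leave out the coefficient of variation of 4.66% between the libraries. With DESeq2 size factors or ERCC totals in place of TMM factors the intervals of Gfap and Fgfr3 held 1, and 3 genes were left. The median log2 ratio of the 10 genes was 0.04, against 0.0004 over all tested genes. Their median absolute log2 ratio was 0.05, against 0.07 over all tested genes, which were not matched for counts. Direction depended on the scale, since 4 of the 10 genes had opposite directions in scaled counts and in TPM.

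**Figure D4:**
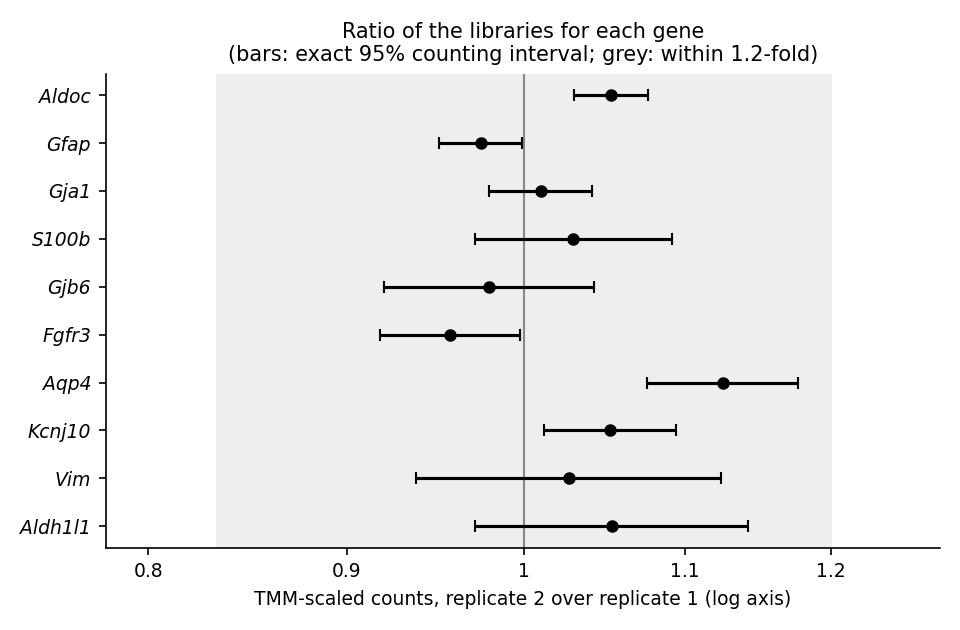
Ratio of TMM-scaled counts, replicate 2 over replicate 1 (log axis), for each gene, with exact 95% counting intervals as bars and the range within 1.2-fold in grey. All 10 ratios lie in the grey range, from 0.957 for Fgfr3 to 1.13 for Aqp4.

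Of the 30 members of the wider astrocyte list 23 had a ratio above 1, beside 50.1% of all tested genes. The median log2 ratio of the list was 0.04. Dio2, the deiodinase that activates thyroid hormone, was the single member over 1.2-fold apart, beside 10.4% of all tested genes. Dio2 had 17.4 TPM in replicate 2 against 22.1 TPM in replicate 1, a ratio of 0.823. Genes shared by astrocytes and adult neural stem cells were all 10 detected, with Hopx at 33.4 ± 0.31 TPM, Fabp7 at 24.9 ± 0.43 TPM, Sox2 at 19.9 ± 2.19 TPM and Thrsp at 17.1 ± 3.15 TPM. The lowest was Nes, the nestin filament gene, at 1.67 ± 0.30 TPM. In this list 2 members were over 1.2-fold lower in replicate 2, beside 4.75% of all tested genes. The 2 were Thrsp and the Notch target gene Hes5. Hes5 had 144 counts and 4.50 TPM in replicate 2, against 281 counts and 10.4 TPM in replicate 1.

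Lists of reactive astrocyte genes, taken from textbook usage, were low in level compared with Gfap. Of 11 pan-reactive genes 7 were detected, led by the protease inhibitor gene Serpina3n at 33.0 ± 3.19 TPM, followed by Hspb1 at 6.54 ± 0.27 TPM, Cp at 4.24 ± 0.54 TPM and S1pr3 at 2.50 ± 0.01 TPM. The chemokine gene Cxcl10 had 1 count in each library. Of the 7 tested, 3 were over 1.2-fold higher in replicate 2, beside 5.62% of all tested genes, and none was lower. The 3 were Cp, Cd44 and Aspg, at 1.46-fold, 1.30-fold and 1.48-fold, and Serpina3n had a ratio of 0.910.

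Among 12 genes of the list called A1, 9 were detected and 10 tested. Of those, 7 were over 1.2-fold higher in replicate 2 and 1 was lower, beside 5.62% and 4.75% of all tested genes. Counts of the 7 ran from 68 in replicate 2 and 41 in replicate 1 for Gbp2 to 702 and 481 for H2-D1. No share was computed over tested genes of like counts. The median log2 ratio of the list was 0.48. Fkbp5, a glucocorticoid-induced gene and the highest of the list, was the lower one, with 24.6 TPM in replicate 2 against 33.1 TPM in replicate 1. Next came H2-D1, a class I histocompatibility gene, with 14.1 TPM in replicate 2 against 10.8 TPM in replicate 1. Amigo2 had 7.91 TPM in replicate 2 against 9.22 TPM in replicate 1, and the complement inhibitor gene Serping1 had 3.84 and 3.02 TPM there. Iigp1 was lowest, with 15 counts in replicate 2 and 14 in replicate 1. Histocompatibility genes have near copies, so reads of H2-D1 and H2-T23 could be shared with them.

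The list called A2 held 5 detected genes of 12, led by S100a10, Tm4sf1 at 6.91 ± 1.33 TPM, Ptgs2 at 6.78 ± 0.21 TPM and Cd14 at 1.67 ± 0.16 TPM. Slc10a6 was lowest, with 5 counts in replicate 2 and 1 in replicate 1. Of 6 tested, 1 was over 1.2-fold higher and 1 lower in replicate 2, beside 5.62% and 4.75% of all tested genes. These were S100a10 and Cd109. The ratio of S100a10 was 1.203, just past the cutoff, and that of Cd109 was 0.824. Many genes of the reactive lists are also expressed by vascular, meningeal or immune cells.

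Several lists of markers of other cell types held genes far apart between the libraries. Of all tested genes 5.62% were over 1.2-fold higher in replicate 2, and 0.384% were over 2-fold apart in either direction. Of 8 meningeal fibroblast markers all 8 were over 1.2-fold and 6 over 2-fold higher in replicate 2. The median of their log2 ratios was 1.05. Their summed level was 96.4 TPM in replicate 2 against 58.1 TPM in replicate 1, and the highest, Igf2, was 2.22-fold higher in replicate 2. Of the mural cell markers 5 of 6 tested were over 1.2-fold higher, with a summed level of 62.5 TPM in replicate 2 against 49.4 TPM in replicate 1. Of 7 endothelial markers 3 were over 1.2-fold higher, with sums of 79.0 TPM in replicate 2 against 76.8 TPM in replicate 1. No marker of these 3 lists was at 0. Aldh1a2, given above with the enzymes of its family, is itself 1 of the 8 meningeal markers and of the 6. The part of these lists in the higher values of the A1 genes, Gjb2 and Aqp4 in replicate 2 was not tested.

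Oligodendrocyte markers went the other way. Of 10 such markers 8 were over 1.2-fold lower in replicate 2, beside 4.75% of all tested genes. The median of their log2 ratios was -0.35. Their summed level was 916 TPM in replicate 2 against 1258 TPM in replicate 1, and Mbp, the myelin basic protein gene, had a ratio of 0.755. S100b, which these cells share, had a ratio of 1.03, and the oligodendrocyte connexins Gjc3 and Gjb1 had the ratios below 1 given above. Their part in those ratios was not tested.

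Choroid plexus markers summed to 7.24 TPM in replicate 2 against 11.8 TPM in replicate 1, and 2 of 3 tested were over 1.2-fold lower in replicate 2. One of them, Clic6, was over 2-fold lower, with 71 counts in replicate 2 and 156 in replicate 1. Of 3 tested ependymal markers 1 was over 1.2-fold lower. Of all tested genes 4.75% were over 1.2-fold lower, and 0.384% were over 2-fold apart in either direction. None of the 7 microglia, 6 oligodendrocyte precursor or 6 inhibitory neuron markers was over 1.2-fold apart, beside 10.4% of all tested genes. Of 6 excitatory neuron markers 1 was over 1.2-fold higher, beside 5.62% of all tested genes.

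**Figure D5:**
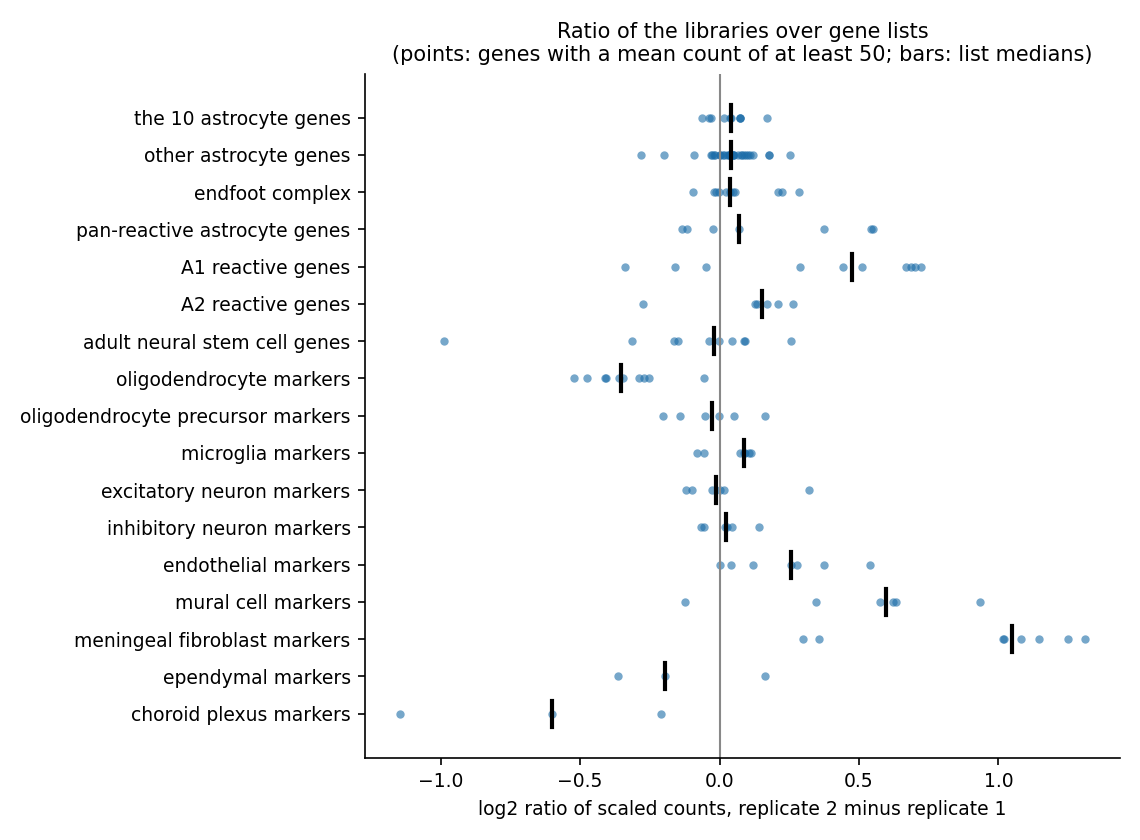
Log2 ratio of scaled counts, replicate 2 minus replicate 1, for the 10 astrocyte genes and 16 gene lists, with a point for each tested gene, which had 50 counts or more on average, and a bar at each list's median. The 10 genes lie close to 0 with a median of 0.04, while meningeal fibroblast markers have a median of 1.05 and oligodendrocyte markers one of -0.35.

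Across the 10 genes, 64 transcripts were annotated. Of the 8 genes with several transcripts, all 8 had the same leading transcript in both libraries, and 5 had the same one in both layouts. Among 11529 detected nuclear protein-coding genes with several transcripts, the leading transcript was the same in both layouts for 76.2%. Grouped by identical coding sequence, the leading class was the same in both layouts for 7 of the 8 genes, with Vim as the exception. No share over all genes was computed for this grouping. The share of the leading transcript differed between layouts by a median of 19.4 percentage points over the 8 genes and 9.71 percentage points over all such genes. For Gfap it differed by 4.95 percentage points.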

How the data were processed

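The authors deposited, per the file headers, an expected count (an estimated count that need not be whole), TPM and FPKM for each gene and transcript, and the percent of each gene's TPM taken by each transcript, in columns as RSEM writes them. Columns of the other deposited transcript table, as kallisto writes them, hold an estimated count and TPM. Build mm10 and annotation GENCODE M21 are named in the deposited notes. Bounds of TPM intervals in the deposited tables were not printed, since their level is not stated. How strand was handled is not given in the sources used here, nor are the aligner and program versions.

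Expected counts were rounded to whole numbers, and spike-in rows were kept out of library sizes. TMM factors were computed with edgeR 4.0.16 in R 4.3.3 on 17697 genes. Ratios are replicate 2 over replicate 1, with a prior count of 2 for log2 values. Intervals are exact binomial, conditional on the sum for ratios and Clopper-Pearson for shares. Kallisto-layout transcripts were summed per gene. Other steps ran in Python 3.11.15 with scipy 1.17.1, numpy 2.4.6 and pandas 2.3.3, and the rule was tested on simulated data.

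The 10 genes, the 24 lists and their rules were chosen with earlier results of these data known. Named are the 10 genes, their transcripts with a mean share of at least 5% in either layout or another 3′ end, and from each fine list up to 4 members of highest TPM, the lowest with a count in both libraries and any over 2-fold apart. Genes over 1.2-fold apart outside that rule were named after their values were seen, and for lists of other cell types fewer are named. Some genes within the rule and some sequence are not reported here. Alternatives scaled by ERCC totals, library totals or the size factors of DESeq2 1.42.0, or used other count minimums and prior counts, TPM, FPKM, posterior means, the kallisto layout, protein-coding genes or transcripts alone, and each library alone.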

Additional observations from a re-analysis of the deposited data

How the results depend on the processing

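No paired analysis was possible because there was 1 group. Under DESeq2 size factors, library totals, ERCC totals, kallisto-layout counts, TPM and every count minimum tried, 0 of the 10 genes were over 2-fold or over 1.2-fold apart. The count minimums could not change this, since the lowest count of a member in a library was 931. The median of 49.6 TPM became 85.6 TPM in the kallisto layout, 49.9 with posterior mean TPM, 36.4 in FPKM and 94.2 as a mean instead of a median. Rescaled to nuclear protein-coding genes, it was 121.6 TPM in the RSEM layout and 119 TPM in the kallisto layout. By construction this removes other RNA from the total. The median was 49.6 to 49.7 TPM in the libraries taken alone. The Gfap-201 share was 86.1% in the kallisto layout, against 91.1%, and 90.6 to 91.5% in single libraries. The Aqp4-201 share was 55.9% in the kallisto layout and 87.7% by counts, against 60.0%, and 59.3 to 60.7% in single libraries. Counts are not corrected for length. The cause of the other steps was not tested. Grouping by identical coding sequence, chosen after seeing the data, could not change either share. No other transcript carries the coding sequence of Gfap-201 or that of Aqp4-201. Of the 10 log2 ratios, all 10 stayed within their counting interval under each prior count and scaling and in the kallisto layout. On the TPM scale 5 did, and 4 changed sign there. Prior counts as small as those tried could hardly move a ratio at the counts of these genes. Intervals of the ratio that did not hold 1 numbered 5 with TMM factors and library totals and 3 with DESeq2 size factors and ERCC totals, a check chosen after seeing the data. With 2 libraries no error between animals can be given, and single transcripts of nearly the same sequence are less certain than the gene's total.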
